A study of Mus musculus with 30 samples.

Results

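The miRNAs described here are mmu-miR-142-3p, mmu-miR-142-5p, mmu-miR-150 and mmu-miR-223, the mouse forms of miR-142-3p, miR-142-5p, miR-150 and miR-223, which are abundant in white blood cells and were read in whole heart sections. They were chosen by name, as the rows of the array and of the series value table that carry these 4 names, out of 1079 mouse miRNAs on the array. All 4 were among the 306 miRNAs that were bright enough to be tested. The hearts came from female C57BL/6 mice that reached the laboratory at 5 to 6 weeks of age. Each mouse received 1 intratracheal instillation of 40 µl of liquid followed by 150 µl of air. The exposed mice were given 162 µg of Printex 90, a carbon black of nanosized particles, and the vehicle mice 0 µg. Per the labels the particles were suspended in 0.9% saline with 10% acellular lavage fluid from the airways of mice of this strain. The labels call the 0 µg mice vehicle controls and do not describe their liquid separately. Hearts were collected 1, 3 or 28 days later, as a random section holding both ventricles, which also contains whatever blood was left in the tissue. Each group had 6 mice by the design text, of which 30 samples in all are described here and 29 had signals: on day 1 from 4 vehicle and 6 Printex 90 mice, for day 3 from 6 vehicle and 4 exposed ones, and for day 28 from 4 vehicle and 5 exposed ones. RNA of individual mice was hybridised, per the series text, so the spread given below is that between mice.

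miRNAs are short RNAs that bind messenger RNAs through a seed, bases 2 to 8 from their 5′ end, and lower the output of those messages. miR-142 is made in nearly all blood cell lineages, and its hairpin yields a 3′ arm (miR-142-3p) and a 5′ arm (miR-142-5p) that both act as guides. miR-150 is typical of mature lymphocytes, and miR-223 of neutrophils and other myeloid cells. Heart muscle cells are not known as a main source of any of them, so in a heart section they are usually read as a sign of resident or circulating leukocytes. In a bulk section, fewer cells of a type and less RNA per cell cannot be told apart.

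The mature sequences are shown because the arrays bind the miRNAs by sequence and because both miR-142 products come from 1 precursor. They are printed 5′ to 3′ as RefSeq gives them for GRCm38.p6, with the seed in capitals; RefSeq entries were matched by name for 3 of the 4 miRNAs, and miR-150 is named only. miR-451, miR-144 and miR-144*, red cell miRNAs that recur in the results, follow for comparison.
miR-142-3p: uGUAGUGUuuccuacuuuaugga
miR-142-5p: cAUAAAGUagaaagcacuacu
miR-223: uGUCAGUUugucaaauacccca
miR-451: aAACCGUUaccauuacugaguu
miR-144: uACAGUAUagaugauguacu
miR-144*: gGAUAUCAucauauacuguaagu
No 2 of these sequences share a seed, and the longest run of identical bases shared by miR-142-3p and miR-142-5p was 5 bases. The miR-142 hairpin lies at chr11:87756864-87756927 on the plus strand, with the 5p arm at chr11:87756867-87756887 and the 3p arm at chr11:87756903-87756925. The miR-223 hairpin lies at chrX:96242817-96242926, also on the plus strand. miR-144 and miR-451 come from neighbouring hairpins, at chr11:78073005-78073070 and chr11:78073170-78073241.

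Between 18.4% and 27.5% of spots per array were well above background, 0 spots were saturated, and 228 to 339 mouse miRNAs were detected. Outlying spots made up 2.85% to 9.32% of an array, with the highest share on the day 3 vehicle array that also had the fewest miRNAs detected, and the unscaled 75th percentile differed up to 2.36-fold between arrays. The arrays lay on 4 slides, and each slide was scanned once, so slide and scan cannot be told apart. All 4 leukocyte miRNAs were detected on 29 of 29 arrays by at least 1 of their 2 probes. For 7 of these 8 probes every spot used was well above background. The exception was the dimmer probe of miR-150, with 84.7% of its spots. It was not detected on 5 arrays, 4 of them on slide 4, so there miR-150 was detected by its brighter probe alone. Deviations from the group means agreed between the probes of a miRNA with r = 0.95 for miR-142-3p, 0.99 for miR-142-5p, 0.96 for miR-150 and 0.81 for miR-223. The 2 probes share the array, its scaling and its slide, so these r also hold what is common to an array. The passenger strands miR-150* and miR-223* were on the array and were detected on 0 arrays.

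Over all mice, miR-223 varied the least of the 4. All levels here are log2 scaled signals, in which 1 unit is a doubling, and since probes differ in brightness they do not rank the 4 miRNAs by amount. From the lowest to the highest mouse miR-142-3p ran from 8.68 to 9.75, a 2.10-fold range. miR-142-5p ran from 6.10 to 7.14 (2.06-fold), miR-150 from 5.48 to 6.66 (2.26-fold) and miR-223 from 7.98 to 8.58 (1.52-fold). The SD between mice of the same group was 0.29 for miR-142-3p, 0.25 for miR-142-5p, 0.29 for miR-150 and 0.15 for miR-223. The median of this SD over the 306 miRNAs was 0.27, so miR-223 was steadier than most, with 230 miRNAs more variable than it.

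mmu-miR-142-3p, the better studied arm of the pan-leukocyte hairpin, was lowest in the vehicle mice of day 28. In vehicle mice its log2 signals were 8.68, 9.22, 9.05 and 9.01 on day 1. On day 3 they had a low of 8.88, a median of 9.17 and a high of 9.60, and on day 28 they were 8.79, 8.81, 8.95 and 8.84. The day 28 vehicle mice lay close together, inside the day 1 range, and 3 of the 4 lay below every day 3 vehicle mouse. In Printex 90 mice the lowest, median and highest values on day 1 were 8.83, 9.23 and 9.71. On day 3 the values were 9.29, 9.75, 8.89 and 8.82, and on day 28 they were 8.86, 9.69, 9.14, 9.07 and 8.85. Exposed and vehicle mice overlapped on every day, and the highest exposed mouse of each day lay above every vehicle mouse of that day.

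mmu-miR-142-5p is the other arm of that hairpin. Vehicle values were 6.13, 6.61, 6.40 and 6.39 on day 1. On day 3 they ran from 6.36 through a median of 6.48 to 7.06, and on day 28 they were 6.10, 6.17, 6.22 and 6.27. Here the day 28 vehicle mice all lay below the day 3 vehicle mice. Printex 90 values on day 1 ran from 6.21 through a median of 6.52 to 6.88. They were 6.66, 7.14, 6.14 and 6.32 on day 3 and 6.19, 6.50, 6.40, 6.49 and 6.25 on day 28. Exposed and vehicle mice overlapped on all 3 days.

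mmu-miR-150 is the lymphocyte miRNA. Vehicle values were 6.25, 6.30, 6.30 and 5.86 on day 1. They ran from 5.89 through a median of 6.29 to 6.66 on day 3, and were 6.21, 6.55, 6.54 and 5.93 on day 28. The lowest mouse of each of these groups came from the same slide, slide 4. Printex 90 values on day 1 had a low of 5.48, a median of 6.24 and a high of 6.31. On day 3 they were 6.42, 6.36, 6.57 and 6.17, and on day 28 they were 6.65, 6.09, 6.31, 6.50 and 5.92. Exposed and vehicle mice of each day overlapped.

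mmu-miR-223, the myeloid miRNA, stayed within a narrow band. Vehicle values were 8.12, 8.15, 8.29 and 8.36 on day 1. They ran from 7.98 through 8.21 to 8.58 on day 3, and were 8.03, 8.32, 8.41 and 8.46 on day 28. The lowest and the highest mouse of the whole set were both day 3 vehicle mice. Printex 90 values ran from 8.00 through 8.21 to 8.27 on day 1. They were 8.40, 8.33, 8.15 and 8.21 on day 3 and 8.09, 8.27, 8.20, 8.26 and 8.44 on day 28. Exposed and vehicle mice overlapped on all 3 days.

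**Figure D1:**
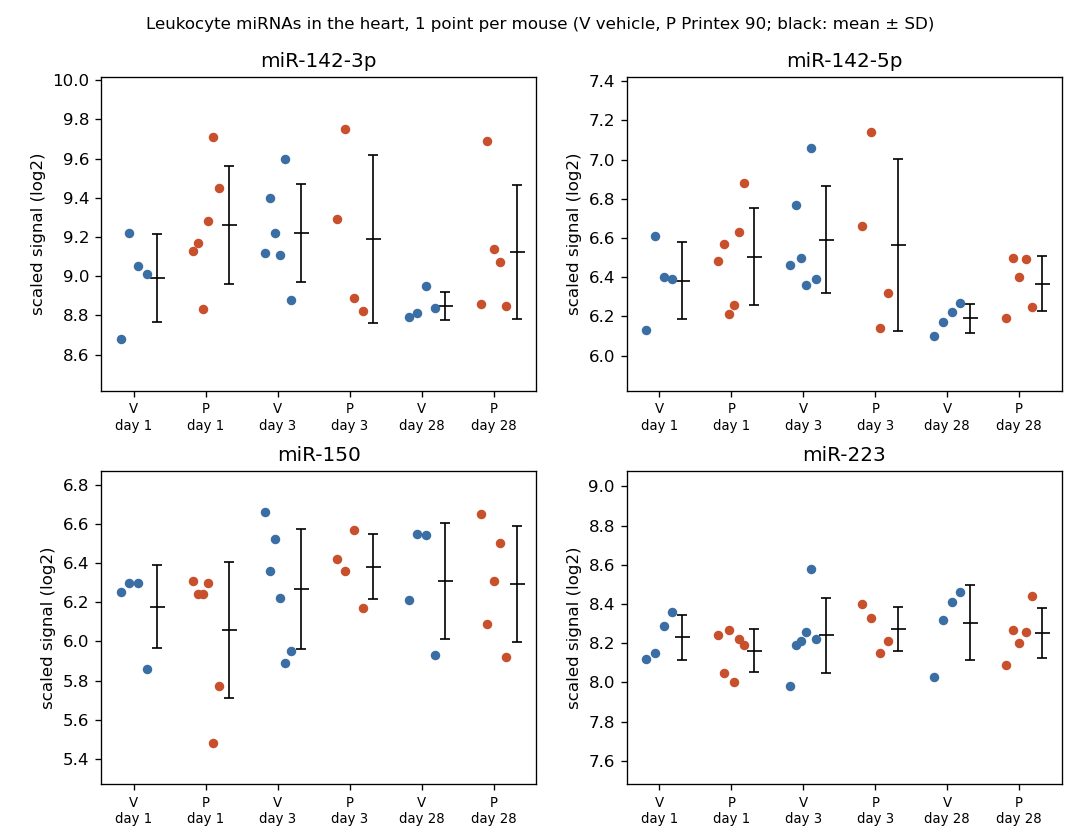
Log2 scaled signal of miR-142-3p, miR-142-5p, miR-150 and miR-223 (vertical axes, each spanning the same number of log2 units) in vehicle (V, blue) and Printex 90 (P, red) mice on days 1, 3 and 28, with 1 point per mouse and the group mean ± SD in black. Exposed and vehicle points overlap in every panel on every day; miR-223 shows the narrowest spread and miR-150 has low points in several groups.

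Ordered by group mean, neighbouring groups of miR-142-3p differed by less than 1 SD. They ran from Printex 90 mice on day 1 (9.26 ± 0.30, SD, n = 6) and vehicle mice on day 3 (9.22 ± 0.25, n = 6) to Printex 90 mice on day 3 (9.19 ± 0.43, n = 4) and day 28 (9.12 ± 0.34, n = 5). Vehicle mice on day 1 (8.99 ± 0.23, n = 4) and day 28 (8.85 ± 0.07, n = 4) closed the order. For miR-142-5p the order was vehicle mice on day 3 (6.59 ± 0.27, n = 6), Printex 90 mice on day 3 (6.57 ± 0.44, n = 4) and day 1 (6.51 ± 0.25, n = 6), then vehicle mice on day 1 (6.38 ± 0.19, n = 4). Printex 90 mice on day 28 (6.36 ± 0.14, n = 5) came next, and vehicle mice on day 28 (6.19 ± 0.08, n = 4) last. Only this last step, of 0.17, was larger than the larger SD of its 2 groups. In miR-150 the group means ran only from 6.06 ± 0.35 in Printex 90 mice on day 1 (n = 6) to 6.38 ± 0.17 in Printex 90 mice on day 3 (n = 4). In miR-223 they ran from 8.16 ± 0.11 in Printex 90 mice on day 1 (n = 6) to 8.31 ± 0.19 in vehicle mice on day 28 (n = 4). Within these 2 miRNAs every neighbouring pair of groups lay less than 1 SD apart.

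The first question of the design is whether an instilled dose of carbon black changed these miRNAs in the heart. None of the 4 passed the test on any day. Differences are Printex 90 minus vehicle on the log2 scale with their SE, from a limma fit of all 6 groups, and p-values were adjusted by the Benjamini-Hochberg method across all 306 miRNAs (threshold 0.05). Over all 306 miRNAs, limma called 0 (0%) on day 1, 0 (0%) on day 3, 0 (0%) on day 28 and 0 (0%) for the mean of the 3 days. An unadjusted p under 0.05 was reached by 2, 1, 1 and 0 miRNAs respectively, and none of these was a leukocyte miRNA named here. A count of 0 among 4 is therefore the same as the background.

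miR-142-3p was 0.27 ± 0.18 higher in exposed mice on day 1, or 1.20-fold with a 95% interval of 0.926 to 1.57 (limma adjusted p = 0.749). Its difference was -0.03 ± 0.18 on day 3 (adjusted p = 0.998) and 0.27 ± 0.19 on day 28, or 1.21-fold with an interval of 0.919 to 1.59 (adjusted p = 0.921). Over the 3 days it averaged 0.17 ± 0.11, and its interval of 0.965 to 1.31-fold includes no change. Within the slides that held both groups, the difference lay between -0.05 and 0.56 on day 1 (4 slides), between -0.41 and 0.26 on day 3 (3 slides) and between 0.01 and 0.53 on day 28 (3 slides). With slide as a block the 3 differences were 0.29, 0.0052 and 0.32. These values show a positive difference on days 1 and 28 that is not larger than the spread between mice.

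The differences of miR-142-5p had the same signs and were smaller, at 0.12 ± 0.16 on day 1, -0.02 ± 0.16 on day 3 and 0.17 ± 0.17 on day 28 (limma adjusted p of 0.872, 0.998 and 0.921). The 95% interval of its mean over the days was 0.932 to 1.22-fold. miR-150 differed by -0.12 ± 0.18, 0.12 ± 0.18 and -0.02 ± 0.19 on the 3 days (adjusted p of 0.891, 0.998 and 0.988), and its mean over the days had an interval of 0.855 to 1.16-fold. On day 1 the sign of miR-150 turned with the scaling: it was 0.06 with the 75th percentile over all probes and 0.10 after quantile normalization. miR-223 differed by -0.07 ± 0.10, 0.03 ± 0.10 and -0.06 ± 0.10 (adjusted p of 0.884, 0.998 and 0.931). Its sign also turned with the scaling, to 0.11 with the 75th percentile over all probes and 0.01 after quantile normalization on day 1, and to -0.06 over all probes and -0.10 in the deposited table on day 3. The interval of its mean was the narrowest of the 4, from 0.901 to 1.06-fold.

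**Figure D2:**
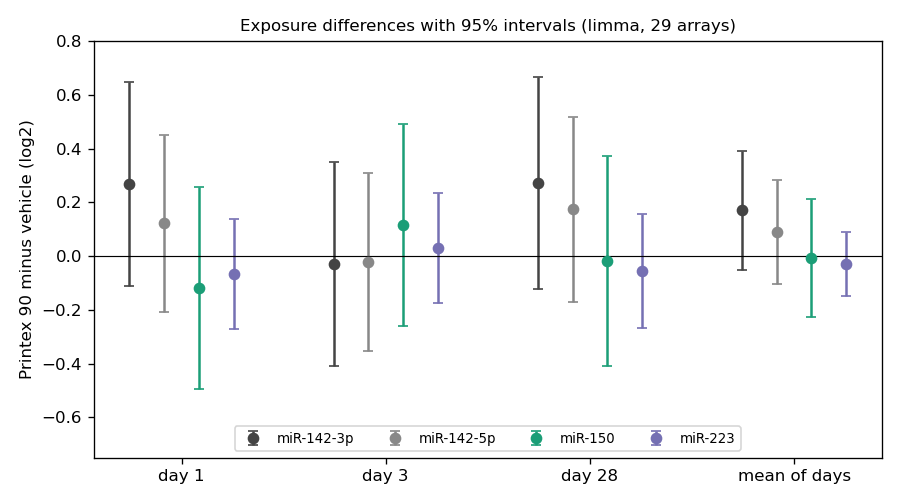
Printex 90 minus vehicle difference of each leukocyte miRNA (vertical axis, log2 units) on day 1, 3 and 28 and as the mean of the days, with 95% intervals from limma as bars. All 16 intervals include 0; the largest differences are those of miR-142-3p on days 1 and 28, at 0.27, and the bars of miR-223 are the shortest.

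As a group the 4 miRNAs showed no common direction. On day 1, 2 sat above and 2 below 0, with a median difference of 0.03 against -0.07 over all 306 miRNAs, of which 107 were above 0. On day 28 the median was 0.08 against 0.01, again with 2 above 0, and on day 3 it was 0.0044 against 0.03. The exposure difference itself was compared between days as an interaction, and limma called 0 (0%) of 306 miRNAs in each of these 3 comparisons. Unadjusted p-values under 0.05 numbered 2 for day 3 against day 1, 3 for day 28 against day 1 and 1 for day 28 against day 3. The largest interaction among the leukocyte miRNAs was 0.30 ± 0.27 for miR-142-3p, day 28 against day 3 (adjusted p = 0.986).

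Time after instillation was compared within vehicle and within Printex 90 mice. None of the 4 passed the test in these 6 comparisons. Among vehicle mice limma called 0 (0%) of the 306 miRNAs for day 3 against day 1 (19 at an unadjusted p under 0.05), 6 (1.96%) for day 28 against day 1 and 1 (0.327%) for day 28 against day 3. Among Printex 90 mice it called 0 (0%; 0 unadjusted) for day 3 against day 1, 2 (0.654%) for day 28 against day 1 and 1 (0.327%) for day 28 against day 3. The largest time difference was that of miR-142-5p, lower by -0.40 ± 0.16 in vehicle mice on day 28 than on day 3 (0.758-fold, 95% interval 0.603 to 0.953). Its unadjusted p was 0.0197 and its limma adjusted p 0.377. An unadjusted p under 0.05 was reached by 21 of the 306 miRNAs in this comparison. All 4 day 28 mice lay below all 6 day 3 mice; over all miRNAs this held for 7 of 306 (2.29%). miR-142-3p differed by -0.37 ± 0.18 in the same comparison (adjusted p = 0.698), while miR-150 and miR-223 differed by 0.04 ± 0.18 and 0.06 ± 0.10. The same comparison in Printex 90 mice gave -0.20 ± 0.17 for miR-142-5p and -0.07 ± 0.19 for miR-142-3p (adjusted p of 0.672 and 0.921). Within the 3 slides that held both vehicle groups, the miR-142-5p difference lay between -0.52 and -0.30.

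Both arms of miR-142 are cut from 1 transcript. The difference between their log2 signals on an array is not altered by dividing that array by 1 scale factor, but it does change with the background correction and in the deposited table. Over the 29 mice miR-142-3p minus miR-142-5p had a mean of 2.68 ± 0.16 (SD), a value that holds the probes' brightness and is not a ratio of amounts. It was 2.61 ± 0.04 in vehicle mice on day 1 (n = 4) and 2.76 ± 0.23 in exposed mice (n = 6), a difference of 0.15. On day 3 the means were 2.63 ± 0.10 (n = 6) and 2.62 ± 0.10 (n = 4), and on day 28 they were 2.66 ± 0.07 (n = 4) and 2.76 ± 0.25 (n = 5). The differences of 0.15, -0.0091 and 0.10 gave two-sided exact permutation p-values of 0.295, 0.862 and 0.683, each 0.862 after adjustment over the 3 days. The smallest p these group sizes allow is 0.0048 on days 1 and 3 and 0.0079 on day 28.

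For the arm difference 3 animals stood apart, picked out after their values were seen. The other 26 mice, all 14 vehicle mice among them, lay between 2.49 and 2.76. Of the Printex 90 mice, 2 of day 1 stood at 3.02 and 3.08, and 1 of day 28 at 3.19. These were 3 of 15 exposed mice and 0 of 14 vehicle mice, from 3 different slides, and no test is given for a split chosen this way. The day 28 mouse had miR-142-3p at 9.69, the highest of its group, and miR-142-5p at 6.50, level with a groupmate at 6.49. The day 1 mouse at 3.02 had miR-142-3p at 9.28, near its group mean of 9.26, and miR-142-5p at 6.26, below its mean of 6.51. The day 1 mouse at 3.08 had both arms above those means, at 9.71 and 6.63. The 3 mice lay above the other 26 with each of the 4 probe pairs. With the dimmer 3p probe and either 5p probe the 3 mice lay at 2.58 or higher, against at most 2.42 in the other 26. In the deposited values, 2 of the 3, at 2.59 and 2.72, still lay above the other 26 mice, whose highest value was 2.40, and the remaining mouse lay at 2.36. Without the day 28 animal the day 28 difference was -0.0097.

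**Figure D3:**
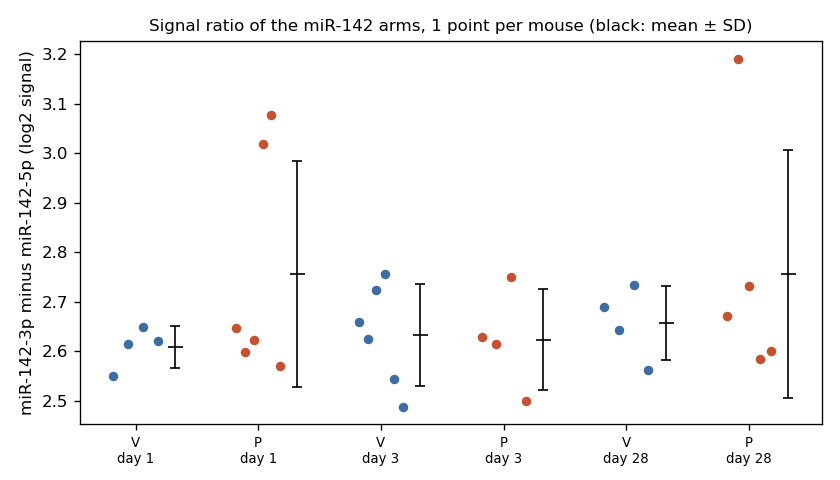
Log2 signal of miR-142-3p minus that of miR-142-5p (vertical axis) in vehicle (V) and Printex 90 (P) mice by day, with 1 point per mouse and the group mean ± SD in black. Most mice lie between 2.49 and 2.76, and 3 exposed mice, 2 of day 1 and 1 of day 28, lie above 3.

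Among mice of the same group, miR-142 rose and fell with the red cell miRNAs miR-451 and miR-144. miR-451, which is processed by Argonaute 2 in maturing red cells, and miR-144, made from the same cluster, mark red cells in a tissue section. Each mouse's deviation from its group mean was compared across 29 mice, with 26 such relations tested and permutations drawn within groups. The deviations of miR-142-3p followed those of miR-451 with Pearson's r = 0.91 (permutation p = 1e-05, the smallest these permutations can give; adjusted p = 0.00013) and Spearman's rho = 0.87 (p = 1e-05; adjusted p = 0.00026). Leaving out the 2 mice farthest from the median of miR-451 gave r = 0.86, and removing slide means gave 0.91. Within the 4 slides r lay between 0.87 and 0.96. It was 0.88 among the 14 vehicle mice and 0.91 among the 15 exposed mice. Either probe of miR-142-3p gave this relation, with r = 0.91 and 0.88.

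miR-142-5p was related to miR-451 less tightly, with r = 0.79 (permutation p = 3e-05; adjusted p = 0.00026) and rho = 0.72 (permutation p = 0.00017; adjusted p = 0.00147). Without the 2 farthest mice r was 0.75, and within slides it lay between 0.44 and 0.95. Leaving out the 8 mice of slide 4 took r to 0.68 and the adjusted p to 0.116 with fewer mice, so this arm was not called without those mice, while miR-142-3p kept r = 0.89 with an adjusted p of 0.0026. miR-150 (r = -0.39, permutation adjusted p = 0.0977; rho = -0.31) and miR-223 (r = 0.19, adjusted p = 0.385; rho = 0.09) did not pass in the same test. With slide means removed, miR-150 did pass (r = -0.48, permutation adjusted p = 0.0476). Under the scaling over all probes the 2 miR-142 arms kept their relation (r = 0.95 and 0.91), miR-223 gained one (r = 0.68, adjusted p = 0.00026) and the sign of miR-150 turned to 0.23. With no scaling miR-223 was also related to miR-451 (r = 0.58, adjusted p = 0.00451). The 2 miR-142 arms passed under each scaling tried and in the deposited value table.

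**Figure D4:**
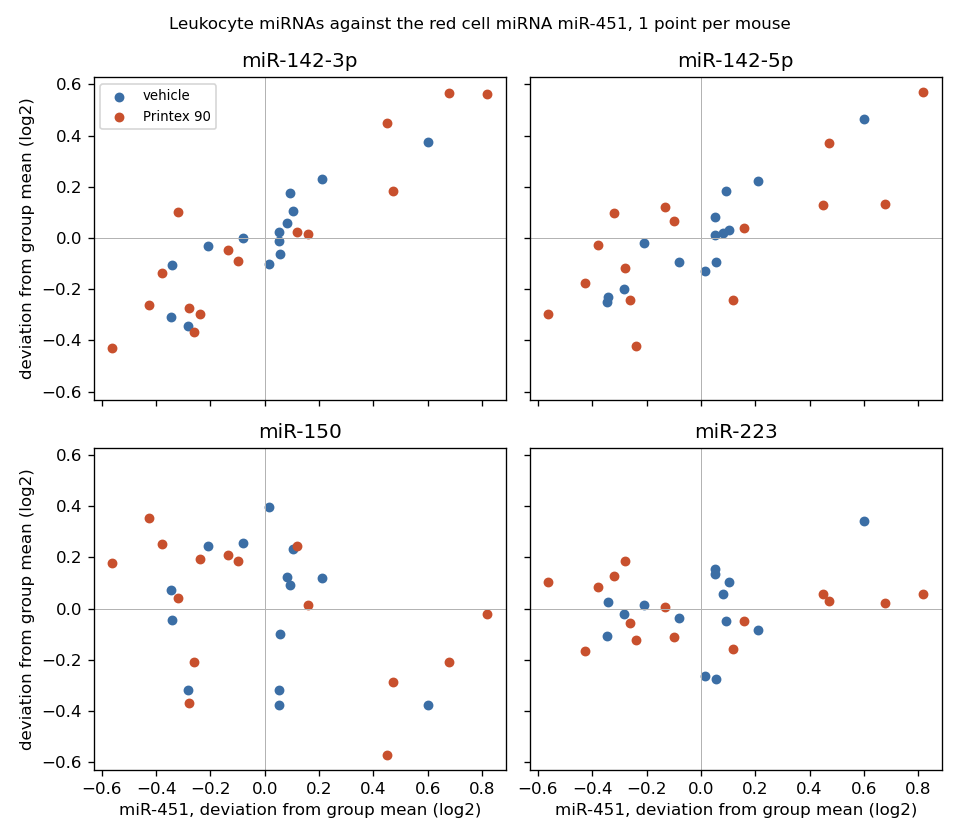
Deviation of each leukocyte miRNA from its group mean (vertical axes, log2) against that of the red cell miRNA miR-451 (horizontal axes, log2), with 1 point per mouse, vehicle in blue and Printex 90 in red. miR-142-3p and miR-142-5p rise with miR-451 (r = 0.91 and 0.79), whereas miR-150 and miR-223 show no rise.

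None of the red cell miRNAs was called for exposure. miR-451 ran from 13.26 to 14.81 over the mice, and was 0.47 ± 0.24 higher in exposed than in vehicle mice on day 1, -0.18 ± 0.24 on day 3 and 0.42 ± 0.25 higher on day 28 (limma adjusted p of 0.749, 0.998 and 0.921). Its difference between vehicle mice of day 28 and day 3, in the row of mmu-miR-451, was -0.70 ± 0.24 (adjusted p = 0.300). Of 5 red cell names listed, 4 were on the array and tested, and 3 of the 4 were above 0 on days 1 and 28 and 1 on day 3, with 0 called (0% over all miRNAs). Of miR-451, miR-144 and miR-144*, it was miR-144* that differed the most on days 1 and 28. It was 0.57 ± 0.26 higher in exposed mice on day 1 and 0.49 ± 0.27 higher on day 28, with -0.15 ± 0.26 on day 3. The remaining red cell miRNA, miR-486*, differed by -0.0016 ± 0.08 on day 1, 0.0040 ± 0.08 on day 3 and -0.05 ± 0.08 on day 28. Among vehicle mice its mean was 6.40 on day 3 and 6.53 on day 28, while miR-451 was lower on day 28. How miR-486* varied with miR-142 across mice was not among the relations tested. The signals of the 4 were also summed before taking log2. In that sum miR-451 (median 13.79) outweighs miR-144 (10.01), miR-144* (5.81) and miR-486* (6.43), so it mostly repeats miR-451. The log2 of the sum ran from 13.48 to 14.03 in vehicle mice and from 13.72 to 14.75 in exposed mice on day 1. On day 3 the ranges were 13.94 to 14.88 and 13.79 to 14.92, and on day 28 they were 13.38 to 13.68 and 13.57 to 14.66. When miR-451 was added to the fit as a covariate, the exposure differences of miR-142-3p were -0.06, 0.10 and -0.02 on the 3 days, in place of 0.27, -0.03 and 0.27. Those of miR-142-5p were -0.12, 0.07 and -0.05. The vehicle difference between day 28 and day 3 became 0.11 for miR-142-3p and -0.04 for miR-142-5p. This covariate was chosen after the relation to miR-451 was seen, so these values restate that relation and are no independent test.

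Among themselves, the arms of miR-142 were the most closely related pair in the scaling used here, with r = 0.83 (permutation p = 1e-05, the smallest possible; adjusted p = 0.00013), rho = 0.86 (p = 2e-05; adjusted p = 0.00026) and 0.59 to 0.98 within slides. miR-150 and miR-223, the lymphoid and the myeloid miRNA, were inversely related with r = -0.51 and rho = -0.49 (permutation adjusted p of 0.0374 and 0.0455). This did not hold within slides, where r lay between -0.43 and 0.0035, nor with slide means removed (r = -0.21). It turned to 0.37 under the scaling over all probes and to 0.73 with no scaling. The relations of miR-142-3p with miR-150 (r = -0.29) and miR-223 (r = 0.29), and of miR-142-5p with miR-150 (r = -0.31) and miR-223 (r = 0.44), did not pass (permutation adjusted p of 0.219, 0.194, 0.17 and 0.0565). With slide means removed, miR-142-3p with miR-150 did pass (r = -0.56, permutation adjusted p = 0.0128). With no scaling both arms passed with miR-150 in the other direction (r = 0.59 and 0.64, permutation adjusted p of 0.00493 and 0.00251). The relations with miR-223 also passed under other scalings. With the percentile over all probes r was 0.74 for miR-142-3p (permutation adjusted p = 0.000104) and 0.77 for miR-142-5p (0.00013), with no scaling 0.75 and 0.83, and after quantile normalization 0.65 for miR-142-5p (0.00052).

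Each of the 4 was also set against the other 209 tested miRNAs detected on every array, and the 3 with the most similar deviations over the 29 mice are named here as a description. For miR-142-3p they were miR-144* (r = 0.94), miR-451 (0.91) and miR-144 (0.90), all 3 of them red cell miRNAs, and its own partner arm followed, at 0.83. For miR-142-5p they were miR-144 (0.85), miR-142-3p (0.83) and miR-15b (0.80), a member of the miR-15 and miR-16 family. The median r over all 209 was -0.16 for miR-142-3p and 0.0012 for miR-142-5p. For miR-150 the closest were miR-30b (0.92) and miR-30c (0.87), of a family abundant in heart muscle, and miR-126-5p (0.86), an arm of the endothelial miR-126. With slide means removed these fell to 0.70, 0.52 and 0.62. For miR-223 they were miR-199b* (0.72), miR-362-3p (0.71) and miR-199a-5p (0.66), and no leukocyte miRNA named here was among its closest. These points share arrays, scaling and slides.

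Slide mattered for miR-150. In all 6 groups the mouse with the lowest miR-150 lay on slide 4, and all 8 mice of that slide lay below their group mean. Mean deviations were 0.14 ± 0.18 on slide 1 (SD, 8 mice), 0.12 ± 0.17 on slide 2 (7 mice), 0.15 ± 0.10 on slide 3 (6 mice) and -0.35 ± 0.10 on slide 4 (8 mice). With group and slide in 1 limma fit, slide 4 lay -0.50 ± 0.07 from the mean of the other slides, and the F test over slides gave miR-150 an adjusted p of 0.000121. Slides differed for many miRNAs, since this F test called 59 of 306 (19.3%). miR-142-3p, miR-142-5p and miR-223 were not called (adjusted p of 0.614, 0.438 and 0.231), and miR-223 lay 0.14 ± 0.06 higher on slide 4. The call for miR-150 was lost under the scaling over all probes (-0.46, adjusted p = 0.0832), after quantile normalization (-0.39, 0.0749), with normexp (-0.08, 0.392) and in the deposited value table (-0.18, 0.114), each time with the same sign. With the brighter probe alone it was -0.51 (adjusted p = 0.00011). In the scaling used here, miR-150 was also higher on brighter arrays. Its deviations followed the share of spots well above background with r = 0.54 and rho = 0.50 (permutation adjusted p of 0.0374 and 0.0511, so rho did not pass). Within slides r was 0.34 to 0.73, and without the 2 farthest arrays it was 0.49. The sign turned under the scaling over all probes (-0.09), after quantile normalization (-0.13) and in the deposited table (-0.02).

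**Figure D5:**
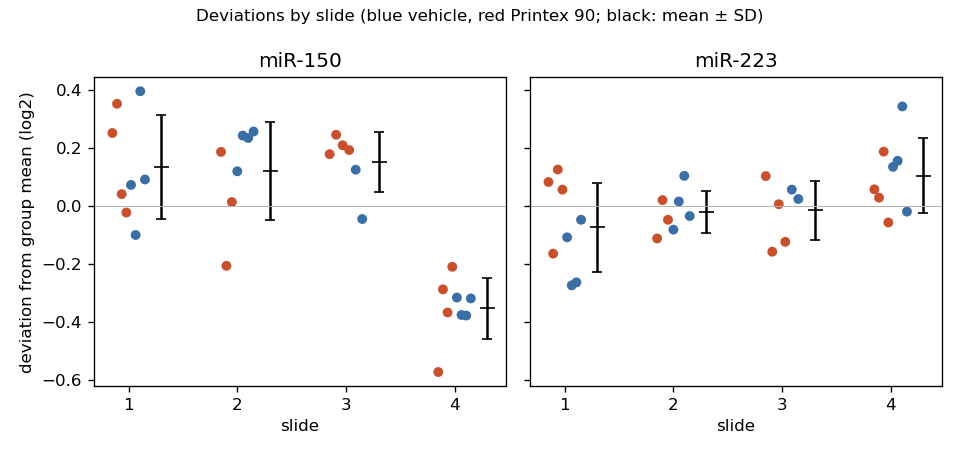
Deviation of miR-150 and miR-223 from the group mean (vertical axis, log2) by slide, with 1 point per mouse (vehicle blue, Printex 90 red) and the slide mean ± SD in black. All 8 mice of slide 4 lie below 0 for miR-150, with a mean of -0.35, while miR-223 on that slide has a mean of 0.10.

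Every group had at least 1 mouse on slide 4, so the exposure comparison could be read with slide as a block. The day 1 difference of miR-150 was then -0.08 ± 0.10, that of day 3 0.07 ± 0.11 and that of day 28 -0.05 ± 0.11, with SEs well below those of the fit without slide. For miR-223 the blocked differences were -0.08 ± 0.09, 0.05 ± 0.09 and -0.05 ± 0.09. None was called (limma adjusted p of 0.768 or higher). The largest blocked time difference of miR-150 was 0.28 ± 0.11 between Printex 90 mice of day 3 and day 1 (unadjusted p = 0.0146, adjusted p = 0.999).

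The other leukocyte and immune miRNAs on the list were not called either. Of 14 names beside the 4, 13 were on the array and 5 were tested: miR-342-3p, miR-155, miR-146a, miR-181a and miR-181b. None was called in any of the 13 comparisons. On day 1, 1 of the 5 was above 0, with a median of -0.08, on day 3, 4 of 5 (median 0.05), and on day 28, 3 of 5 (median 0.08). Over all 306 miRNAs, 107, 184 and 169 were above 0 on these days. The largest difference was that of miR-146a, which restrains Toll-like receptor signalling, at -0.31 ± 0.17 on day 1 (limma adjusted p = 0.749). miR-342-3p, a lymphoid and myeloid miRNA, differed by -0.16 ± 0.11, and miR-155, a miRNA of activated leukocytes, by -0.08 ± 0.09. miR-155 was related to miR-150 across mice (r = 0.69, permutation p = 0.00022, adjusted p = 0.0013; rho = 0.68, adjusted p = 0.00221; r = 0.63 to 0.90 within slides and 0.54 without the 2 farthest mice). In the deposited value table that r was 0.49 (adjusted p = 0.112). Of the 14 remaining relations tested, with miR-126-3p, miR-133a, miR-155 and array brightness, 3 were called, all of them inverse. miR-155 ran opposite to miR-142-3p (r = -0.68, permutation adjusted p = 0.0013; -0.90 to -0.45 within slides). It also ran opposite to miR-142-5p (r = -0.63, adjusted p = 0.00661; -0.66 to -0.44 within slides). miR-133a ran opposite to miR-142-3p (r = -0.59, adjusted p = 0.00386; -0.82 to -0.34 within slides). The sign of all 3 turned under another scaling or in the deposited table.

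The heart muscle miRNAs were present as labelled, and none of the marker lists held a miRNA called for exposure (0% over all miRNAs). Of 8 names for cardiac muscle, 6 were on the array and tested, among them miR-1a, miR-133a and miR-499, each detected on 29 arrays. The 2 with the smallest p were miR-208a-3p, encoded within the cardiac myosin gene Myh6, at -0.25 ± 0.12 on day 28, and miR-133a, at -0.07 ± 0.06 over the days. Endothelial miR-126-3p and miR-126-5p, smooth muscle miR-143 and miR-145 and the 3 fibroblast miRNAs (miR-214 and both arms of miR-199a) were all tested with 0 called. Liver miR-122 was detected on 26 arrays and differed by -0.83 ± 0.73 on day 3. All 7 listed miRNAs of lung and airway epithelium were on the array and 0 were tested, each detected on 0 arrays.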

How the data were processed

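RNA of heart sections was hybridised in 1 colour to Agilent miRNA arrays. Per the file headers, the authors quantified the scans with Feature Extraction 10.7.3.1; the deposited files hold linear intensity per spot, background-subtracted, with flags. The file of 1 Printex 90 mouse of day 3 held names only, so 29 of 30 samples entered the tests. The deposited value table, on a log2 scale whose making is not given in the sources used here, served as an alternative, and 0 of its columns were unmapped.

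Spots of a probe were averaged without outlying spots; a probe counted as detected where at least a share of 0.5 of them exceeded background clearly. Each array's scale was set by its 75th percentile over 416 probes detected everywhere, with a floor at 16.5 (4.04 on the log2 scale). A miRNA was the mean of those probes that 4 or more arrays of 1 group detected, which left 306. limma 3.58.1 (R 4.3.3) fitted all 6 groups, with Benjamini-Hochberg adjustment. The miR-142 arm difference was compared between exposed and vehicle mice of each day by exact permutation, and relations were tested by 100000 permutations within groups. Scripts were tested on simulated data. normexp used the median pixel signal, since the files hold no mean.

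The members, lists and tests were chosen with earlier results of these data known. The text names the 4 members, the 3 miRNAs most like each, the tested leukocyte list and up to 2 of each other list with the smallest exposure p. Alternatives changed the scaling, background, probes, filter, slide and mice; using miR-451 as a covariate, testing slide 4 and leaving it out, and the probe pairs behind the 3 high miR-142 arm differences were chosen after seeing the data. The number of arrays limits the precision.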

Additional observations from a re-analysis of the deposited data

Results flagged for a closer look

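Among 30 groups of mice checked (the 4 miRNAs and the miR-142 arm difference in each of the 6 groups), 2 held a mouse far from the rest by Dixon's criterion, and chance alone marks about 1 in 20 such groups. The vehicle mouse of day 1 on slide 4 (replicate 4) had miR-150 at 5.86, while the other 3 lay between 6.25 and 6.30. The Printex 90 mouse of day 28 on slide 2 (replicate 2) had a miR-142-3p minus miR-142-5p difference of 3.19, while the other 4 lay between 2.59 and 2.73.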

How the results depend on the processing

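None of the 4 miRNAs was called in any of 1372 fits under the alternatives (13 other settings and leaving out each mouse in turn, over the 13 comparisons), and 30 of these had an unadjusted p under 0.05. Most values that changed sign lay close to 0. The cause of each change was not tested. No paired analysis was possible because the labels give no replicate numbers that pair mice.

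With miR-451 as a covariate the log2 exposure differences were -0.0558, 0.0964 and -0.0186 for miR-142-3p and -0.122, 0.0739, -0.0453 and -0.0311 for miR-142-5p (days 1, 3, 28 and their mean), 0.0213, 0.108 and 0.0635 for miR-150 (days 1, 28 and mean), and the vehicle day 28 minus day 3 difference of miR-142-3p was 0.11. With no scaling, miR-142-5p was -0.0682 on day 1 and 0.11 on day 3, and miR-142-3p 0.10 on day 3. With the percentile over all probes, miR-150 was 0.0569 and miR-223 0.108 on day 1, miR-223 -0.0558 on day 3 and miR-142-5p -0.0021 on day 28. After quantile normalization miR-150 was 0.0991 and miR-223 0.0121 on day 1. With normexp, miR-150 was 0.0644, 0.0231 and 0.0307 (day 1, day 28, mean) and the arm difference 0.0174 on day 3. In the deposited table, miR-150 was 0.0831 and -0.051 (days 1 and 3), miR-223 0.0031, -0.0999 and 0.0187 (days 1, 3 and 28) and miR-142-5p 0.0095 on day 3. With array brightness as a covariate, miR-150 was 0.0131 on day 1 and 0.0168 as the mean. With total gene signal, day 3 was 0.0162 for miR-142-3p and 0.0319 for miR-142-5p, and miR-150 was 0.00374 on day 28 and 0.00321 as the mean. With slide as a block, day 3 was 0.0052 for miR-142-3p and 0.0068 for miR-142-5p. The median of all miRNAs on day 1 moved by 0.18 with the percentile over all probes and by -0.18 with no scaling.

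Leaving out each mouse in turn, the day 3 difference ran from -0.218 to 0.0917 for miR-142-3p, from -0.212 to 0.12 for miR-142-5p and from -0.0224 to 0.0992 for miR-223. For miR-150 day 28 ran from -0.143 to 0.0745 and the mean from -0.0486 to 0.0316. The arm difference ran from -0.0514 to 0.0322 on day 3 and from -0.0097 to 0.14 on day 28.

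Relations changed most with the scaling. With no scaling r was 0.59 for miR-142-3p with miR-150 and 0.75 with miR-223, 0.635 and 0.835 for miR-142-5p with the same, 0.73 for miR-150 with miR-223, and 0.41 and 0.58 for miR-451 with miR-150 and miR-223. With the percentile over all probes these were 0.32, 0.74, 0.275, 0.77, 0.37, 0.23 and 0.68, and brightness with miR-150 was -0.0941. After quantile normalization miR-142-5p gave 0.28 with miR-150 and 0.65 with miR-223, miR-150 with miR-223 gave -0.045 and brightness with miR-150 -0.13. In the deposited table miR-150 gave -0.18 with miR-223, 0.49 with miR-155 and -0.0207 with brightness. With slide means removed r was -0.56 for miR-142-3p with miR-150, -0.21 for miR-150 with miR-223 and -0.48 for miR-451 with miR-150. Without slide 4 it was -0.17 for miR-150 with miR-223, 0.68 for miR-451 with miR-142-5p, -0.0335 for miR-451 with miR-223 and 0.44 for brightness with miR-150.

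Slide 4 minus the other slides was -0.32, -0.24 and -0.19 for miR-142-3p, miR-142-5p and miR-223 with no scaling, and -0.19, -0.11 and -0.0293 with total gene signal. It was -0.0089 for miR-142-3p after quantile normalization. For miR-150 it was -0.46 over all probes, -0.39 after quantile normalization, -0.083 with normexp and -0.18 in the deposited table. miR-223 was called with normexp (0.16), the brightest probe (0.23) and the deposited table (0.29).

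Counts of called miRNAs also moved. For Printex 90 mice on day 28 against day 1, 2 became 1 (percentile over all probes, arrays of the groups compared only, deposited table, quantile), 0 (no scaling, normexp), 5 (no filter) or 6 (slide block, total gene signal), and 1 to 4 leaving out a mouse. Against day 3, 1 became 0 (arrays of the groups only, detected on every array, no scaling, normexp) or 2 (no filter, slide block). For vehicle mice on day 28 against day 1, 6 became 1 (percentile over all probes, no scaling), 2 (arrays of the groups only, deposited table) or 3 (normexp, quantile), and 3 to 6 leaving out a mouse. Against day 3, 1 became 0 (detected on every array, no scaling, normexp), 2 (brightness or miR-451 covariate), 3 (no filter, slide block) or 4 (total gene signal), and 1 to 4 leaving out a mouse. Of the 8 probes of the 4 miRNAs, signal over background limited the dimmer probe of miR-150.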

Other observations

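The Printex 90 mouse of day 3 whose scanner file holds no signal (replicate 3) has a column in the deposited log2 value table. There it had miR-142-3p at 9.53 and miR-142-5p at 7.42, within the ranges of the other 4 mice of its group in that table, 9.01 to 9.92 and 6.96 to 7.80. Its miR-150 was 7.09, below the other 4 at 7.14 to 7.33, and its miR-223 was 8.25, below the other 4 at 8.40 to 8.59. Both lay inside the ranges of the 6 vehicle mice of day 3, 6.87 to 7.46 for miR-150 and 8.08 to 8.93 for miR-223.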
